A study of Equus caballus with 31 samples.

Results

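AP-1 is a transcription factor that binds DNA as a pair of leucine zipper proteins. The genes described here are 9 of its members, chosen by symbol: FOS, FOSB, FOSL1 and FOSL2 of the Fos family, JUN, JUNB and JUND of the Jun family, and the related zipper proteins ATF3 and BATF2. All 9 were found in both expression tables of the study, out of 16799 gene symbols that the tables share. The study sequenced RNA of cells spun out of joint (synovial) fluid, and of mononuclear cells from blood (PBMC), in healthy horses and in horses whose osteoarthritis (OA), a degenerative joint disease, had arisen naturally. The horses had been classed by lameness examination, radiographs and the response to numbing the joint, and any with recent medication or joint injection had been left out. The fluid groups held 5 OA and 11 healthy horses, and the PBMC groups 6 and 9. In all, 31 libraries from 18 horses were analysed, and 13 horses (5 with OA, 8 healthy) gave both samples. All animals are labelled as of wild type genotype. The labels give no age, sex, joint or batch, and they call both materials mixed mononuclear cells, so every library is a mixture of cell types. Horses are named as in the labels, OA_ or ORC_ (healthy) with a number.

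Fos proteins do not pair with one another and must pair with a Jun protein to bind the AP-1 site, whereas Jun proteins can also pair among themselves. FOS, FOSB, JUN and JUNB are early response genes, switched on within minutes by growth factors, cytokines, stress and cell handling and then shut off again. FOSL1 (Fra-1) and FOSL2 (Fra-2) follow more slowly and last longer, and they lack the strong activation domain of FOS and FOSB. In the joint AP-1 is known as a driver of matrix metalloproteinase and cytokine genes in synovial fibroblasts, macrophages and cartilage cells.

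Values are normalized read counts: the reads of a gene divided by a size factor of its library. Fluid and blood were normalized in separate tables, so no level is compared between them, and no level is compared between genes, whose lengths are not in the files. Changes are differences of log2(value + 1), OA minus healthy, with their standard error (SE), and an adjusted p is limma's with Benjamini-Hochberg adjustment over all tested genes, called at 0.05. A gene was tested where its mean was at least 10. Depth was 25.9 to 35.4 M reads in OA and 26.5 to 36.3 M in healthy fluid. It was 31.7 to 34.8 M in OA and 23.9 to 32.2 M in healthy PBMC, so OA blood was sequenced more deeply, and the part of depth in the blood results was not tested beyond the scaling of each library.

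The cell mixture differed between the groups in both tissues. In fluid the summed level of 12 T cell markers was 8404 to 36498 in OA and 36546 to 135196 in healthy horses, with ORC_202 the lowest healthy horse, and 11 of the 12 genes were called lower. The sum of 9 cytotoxic lymphocyte markers was 9326 to 25807 in OA and 28614 to 131764 in healthy fluid, and all 9 genes were called lower. The summed level of 15 synovial fibroblast markers reached 1586 to 686836 in OA fluid and 889 to 136057 in healthy fluid (median 9063), with 4 of the 15 called higher. OA_9570 was the OA fluid at 1586, with 3 of these markers, PDPN, PDGFRA and CDH11, at 0 reads, and ORC_188 was the healthy fluid at 136057. In PBMC the summed level of 6 monocyte markers was 88228 to 222805 in OA and 40948 to 112574 in healthy horses, with 3 of the 6 called higher. The sum of 8 proliferation genes was 4319 to 8296 in OA and 7479 to 18956 in healthy PBMC, with 5 of the 8 called lower. Of 14 fibroblast markers in PBMC, 11 had medians under 10 in both groups. In such bulk samples fewer cells of a type and less RNA per cell cannot be told apart, and with no batch in the labels a batch that follows disease cannot be told apart from OA.

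In joint fluid the slower Fos members FOSL1 and FOSL2 and the stress-responsive ATF3 were higher in OA, while the early response members FOS, FOSB, JUN and JUNB and the stable JUND did not pass the test. Thus 3 of the 9 genes were called higher and 0 lower, where limma called 14.4% of 13885 tested genes higher and 13.6% lower (28.1% in either direction). At an unadjusted limma p under 0.05 the counts were 5 higher and 0 lower, where 5790 of the 13885 tested genes passed in either direction. edgeR called 2 of the 9 higher and 0 lower, where it called 1947 of all tested genes higher and 2039 lower. DESeq2 called 3 higher and 0 lower, where it called 2509 and 2163. No AP-1 gene separated the groups in fluid: for 0 of 9 did all OA horses lie above all healthy horses, as for 1.57% of tested genes, and for 0 below, as for 1.99%. The median change of the 9 genes was 0.82, and that of all tested genes was 0.08.

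FOSL1 (EquCab3.0 chromosome 12, 29688056 to 29693296) stood at 164 in OA_1038, 374 in OA_2615, 457 in OA_3850, 164 in OA_9350 and 178 in OA_9570. Healthy fluids ran from 2.42 in ORC_196 over a median of 20.7 to 183 in ORC_188. All 5 OA fluids lay above every healthy fluid but ORC_188, with ORC_202 the next healthy horse at 154. OA_2615 and OA_3850 were above ORC_188 as well, so the overlap of the groups came from that 1 horse. The change was 3.26 (SE 0.78, 95% interval 1.63 to 4.89, limma adjusted p = 0.00674), a 9.57-fold difference on this scale, and the two-sided exact permutation p over all 4368 splits was 0.00183. The 2 high healthy fluids differed in their fibroblast marker sums, with the highest healthy sum in ORC_188 and 9063 in ORC_202. Both had low lymphocyte marker sums. Their T cell sums were the 2 lowest of the healthy fluids, 36546 in ORC_202 and 42946 in ORC_188, with ORC_205 next at 56133. Their cytotoxic sums were also the 2 lowest, 28614 and 32654, with ORC_205 next at 36828. The part of these cells in the FOSL1 values of the 2 horses was not tested. The OA fluid with the lowest fibroblast sum, OA_9570, had 182 reads of FOSL1. The healthy values under 10 rest on 3 to 13 reads.

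FOSL2 (chromosome 15, 68998233 to 69017716) was 5458 in OA_1038, 4702 in OA_2615, 13643 in OA_3850, 18634 in OA_9350 and 11233 in OA_9570. In healthy fluid it ranged from 2397 in ORC_209 over a median of 3366 to 7924 in ORC_202. Every OA fluid was above the healthy median and 3 of 5 were above every healthy fluid, while OA_1038 and OA_2615 lay within the healthy range. FOSL2 rose by 1.33 (SE 0.31, 95% interval 0.67 to 1.99, limma adjusted p = 0.00647), a 2.51-fold difference, with an exact permutation p = 0.00275. The order of the OA horses was not that of FOSL1: OA_2615, which had the second most FOSL1, had the least FOSL2.

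ATF3 (chromosome 5, 23305160 to 23318331), a member of the ATF/CREB branch that is induced by cell stress and can repress its own and other genes, was 1897 in OA_1038, 6639 in OA_2615, 2679 in OA_3850, 7554 in OA_9350 and 1634 in OA_9570. Healthy fluid held 247 in ORC_201, a median of 899 and 6455 in ORC_202. The OA fluids all exceeded the healthy median, but only OA_2615 and OA_9350 exceeded ORC_202. The change was 1.80 (SE 0.59, 95% interval 0.55 to 3.05, limma adjusted p = 0.0331; exact permutation p = 0.016). This call was lost when any of 4 horses was left out (adjusted p = 0.0986 without OA_2615, 0.055 without OA_3850, 0.0965 without OA_9350 and 0.0503 without ORC_200), whereas FOSL1 and FOSL2 kept theirs without any 1 horse.

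**Figure D1:**
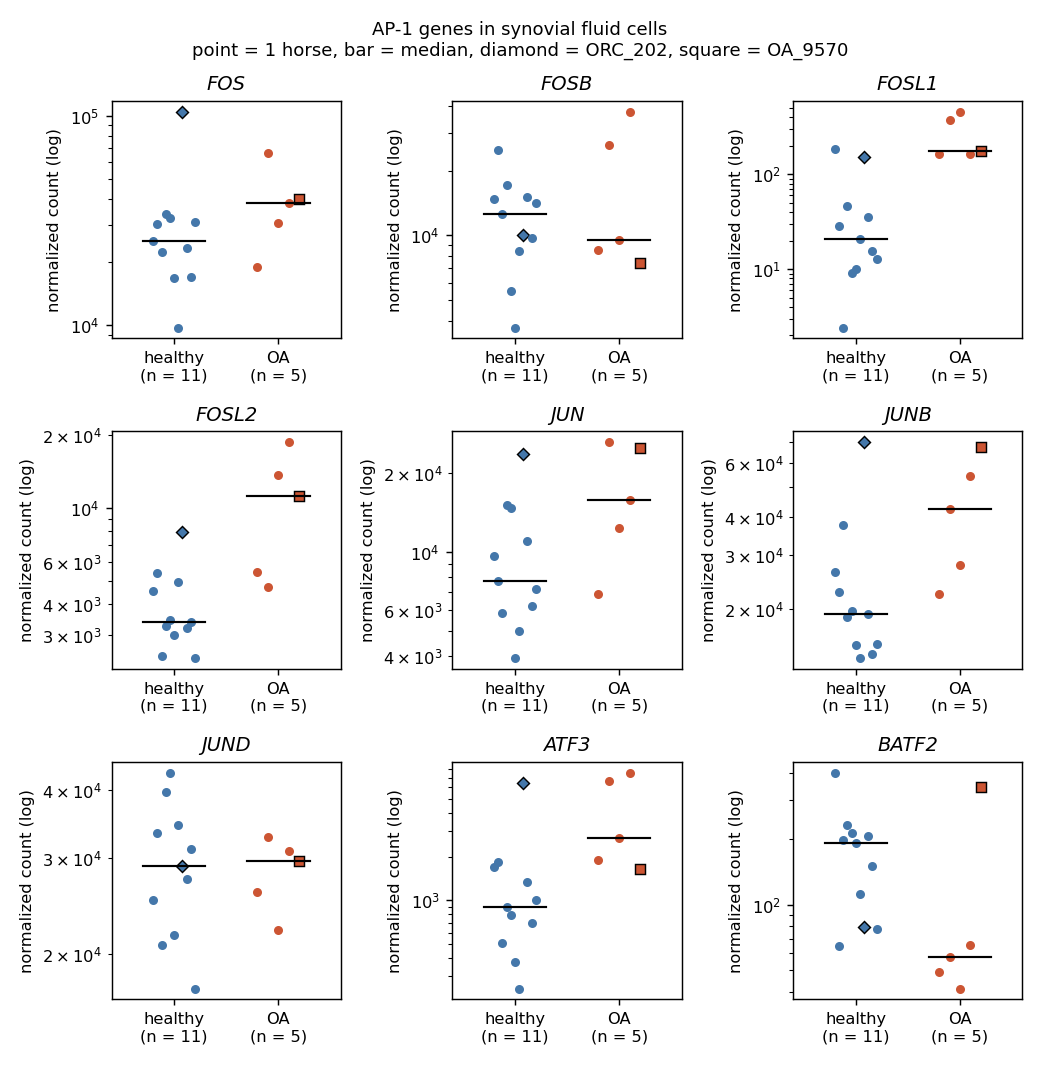
Normalized counts of the 9 AP-1 genes in fluid cells on log axes, 11 healthy (blue) and 5 OA (red) horses per panel, with bars at group medians. FOSL1, FOSL2, ATF3 and JUNB have all 5 OA points above the healthy median, and the healthy horse ORC_202 (diamond) is the highest healthy point for FOS, FOSL2, JUN, JUNB and ATF3.

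FOS, the founding member of the family (chromosome 24, 20589693 to 20592422), was 18877 in OA_1038, 66222 in OA_2615, 30836 in OA_3850, 38411 in OA_9350 and 40218 in OA_9570. The healthy fluids ran from 9736 to 104469 with a median of 25226.5, so every OA value fell inside the healthy range and the top value belonged to the healthy horse ORC_202. The difference of 0.45 (SE 0.40, 95% interval -0.38 to 1.28) had a limma adjusted p = 0.402. FOSB (chromosome 10, 16185414 to 16191249) split the OA fluids, with 26329 in OA_2615 and 37540.5 in OA_9350 above the healthy maximum of 24920.4 and the other 3 at 7389.99 to 9543, below the healthy median of 12512. Its difference was 0.38 (SE 0.43, 95% interval -0.52 to 1.27, limma adjusted p = 0.521). The intervals of both genes include 0 and also a rise of more than 2-fold.

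The Jun genes, which supply the obligate partners of the Fos proteins, leaned upward for JUN and JUNB and stayed level for JUND. JUN (chromosome 2, 1285586 to 1323712) was 6905 in OA_1038, 26276 in OA_2615, 12325 in OA_3850, 15773 in OA_9350 and 24869 in OA_9570, against healthy values of 3922 to 23757 with a median of 7762. OA_2615 and OA_9570 were above every healthy fluid and OA_1038 was below the healthy median. The difference was 0.82 (SE 0.39, 95% interval 0.01 to 1.63, limma adjusted p = 0.114). JUN has no introns in mammals, and its entry in the files spans 38.1 kb, so reads of other transcripts within that interval could be counted under its name. JUNB (chromosome 7, 46879537 to 46880581) was 22490.2 in OA_1038, 42439.8 in OA_2615, 27971 in OA_3850, 54232.5 in OA_9350 and 67310.3 in OA_9570. Healthy JUNB ran from 13889.8 over 19326 to 69939.7 (ORC_202), so all 5 OA fluids were above the healthy median and none above ORC_202. Its difference of 0.86 (SE 0.34, 95% interval 0.14 to 1.58) had a limma adjusted p = 0.0681 and an unadjusted exact permutation p = 0.0357.

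JUN and JUNB were near the threshold, and each of 2 horses decided on which side they fell. Without OA_1038, the OA fluid with the lowest FOS, JUN and JUNB, they gave 1.11 (limma adjusted p = 0.0465) and 1.06 (0.0413), and without ORC_202 they gave 0.97 (0.0422) and 1.03 (0.0107). JUND (chromosome 21, 3592874 to 3593924), the Jun protein that most cells hold at a steady level, was 22112 to 32753 in OA and 17254 to 43104 in healthy fluid. Its difference of -0.02 (SE 0.21) had a 95% interval of -0.46 to 0.42, the narrowest of the 9, and a limma adjusted p = 0.956.

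BATF2 (chromosome 12, 28805576 to 28810512), an interferon-induced zipper protein of the BATF branch that pairs with Jun proteins, was the member with the largest negative difference. It was 49.3 in OA_1038, 57.8 in OA_2615, 41.3 in OA_3850 and 65.4 in OA_9350, and 345 in OA_9570. Healthy fluids held 64.8 (ORC_192) to 402 (ORC_188) with a median of 193, so 3 of the 5 OA horses were below every healthy horse, OA_9350 was just above the lowest, and OA_9570 was near the top. The difference of -0.98 (SE 0.50, 95% interval -2.03 to 0.07) did not pass with all horses (limma adjusted p = 0.147). Without OA_9570 it was -1.52 (limma adjusted p = 0.016).

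The fibroblast, resident macrophage and T cell marker sums were each entered as a covariate in fluid, alternatives chosen after seeing the data; the cytotoxic lymphocyte sum was not entered, and its part was not tested. The resident macrophage sum overlapped between the groups (41201 to 495760 in OA, 9142 to 526795 in healthy fluid), with 1 of its 8 genes called higher. With the fibroblast sum, FOSL2 kept its call at 1.35 (SE 0.38, limma adjusted p = 0.0338), while FOSL1 came to 2.26 (SE 0.82, adjusted p = 0.084) and ATF3 to 1.28 (SE 0.67, adjusted p = 0.214). With the resident macrophage sum, FOSL1 (2.77, adjusted p = 0.0113) and FOSL2 (1.22, adjusted p = 0.0123) kept theirs, and ATF3 did not (1.47, adjusted p = 0.0617). The T cell sum was lower in every OA fluid than in any healthy fluid, and with it limma called 0 of 13885 genes (1535 at an unadjusted p under 0.05). Under that fit FOSL1 came to 0.32 (SE 1.16), FOSL2 to 1.07 (SE 0.57, adjusted p = 0.503) and ATF3 to -0.70 (SE 0.80). Over all 29 alternatives the limma, edgeR or DESeq2 adjusted p ran from 8.23e-05 to 0.948 for FOSL1, from 0.00013 to 0.503 for FOSL2 and from 0.00284 to 0.797 for ATF3.

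FOSL1 and FOSL2 were also set against the early response members FOS and JUN within each library. The values are differences of log2(value + 1) between 2 genes of 1 library, given without a test. Only their difference between groups can be read. A shift here is the OA median minus the healthy median, taken over different horses. FOSL1 minus FOS had a median of -7.46 in OA (-7.86 to -6.07) and -10.00 in healthy fluid (-12.68 to -7.10), a shift of 2.54, and all 5 OA fluids lay above every healthy fluid but ORC_188. FOSL1 minus JUN shifted by 2.21 between the medians.

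FOSL2 minus FOS in fluid had a median of -1.79 in OA and -2.87 in healthy horses, a shift of 1.08, and FOSL2 minus JUN shifted by 0.93. Here OA_2615 went the other way, with FOSL2 minus FOS at -3.82, below every healthy fluid, and the healthy horse ORC_201 was highest of all at -0.98. In blood the shifts were 1.25 against FOS and 1.19 against JUN, and again the groups overlapped. OA_9350, the OA blood with the most FOS, gave -3.71, and the healthy blood of ORC_202 gave -5.03, the lowest of all, while OA_4110 gave -0.40.

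**Figure D2:**
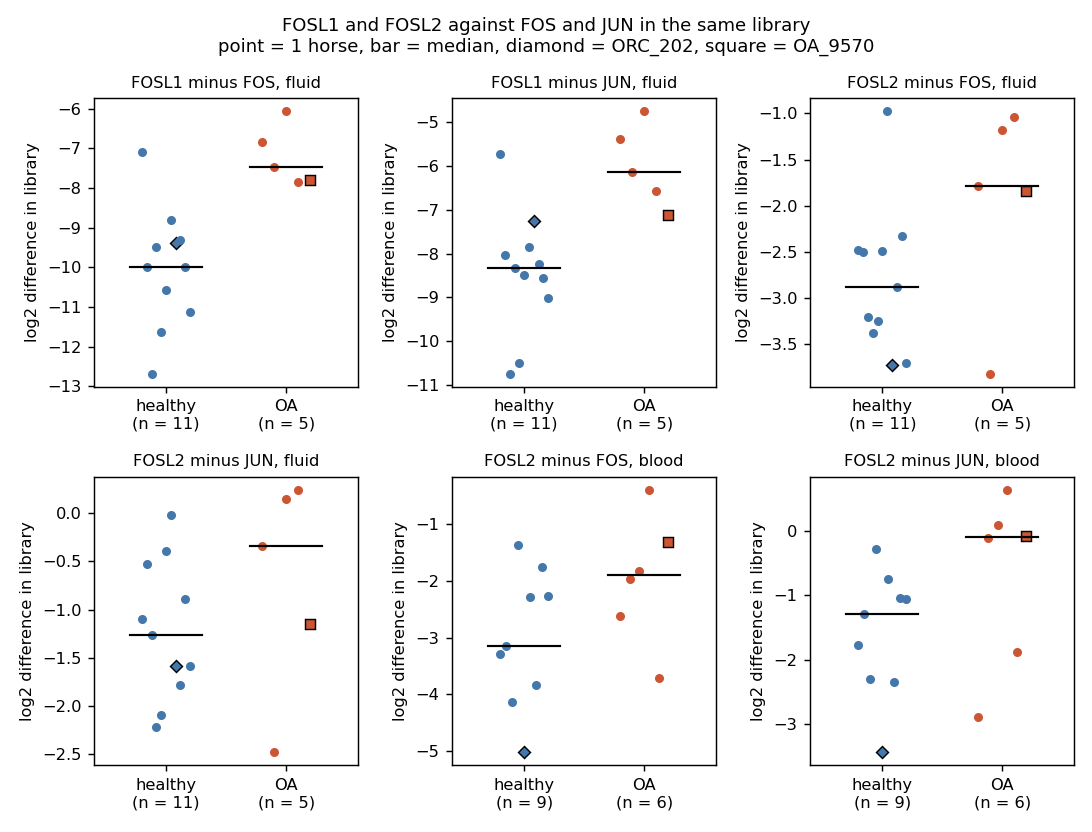
Difference of log2(value + 1) between FOSL1 or FOSL2 and FOS or JUN in the same library, 1 point per horse, with bars at group medians, for fluid (first 4 panels) and blood (last 2). The OA median is above the healthy median by 0.93 to 2.54 in all 6 panels, and points of the groups overlap in each.

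In blood FOSL2 was the AP-1 gene called with OA, and it was higher. The count was 1 of 8 tested genes higher and 0 lower, where limma called 3.20% of 13072 genes higher and 2.20% lower (5.40% in either direction). An unadjusted limma p under 0.05, which 3273 of the 13072 genes had in either direction, gave the same counts. edgeR and DESeq2 did too, where they called 505 and 935 of all tested genes higher and 302 and 750 lower. The median change was -0.01 against 0.02 over all tested genes. FOSL2 was 2416 in OA_1038, 2794 in OA_2615, 3616 in OA_3850, 2124 in OA_4110, 3309 in OA_9350 and 3398 in OA_9570. Healthy PBMC held 964 (ORC_209) to 1997 (ORC_202) with a median of 1368, so all 6 OA horses lay above all 9 healthy horses. This held for 0.612% of tested genes, and the reverse, which no AP-1 gene showed, for 0.436%. FOSL2 rose by 1.05 (SE 0.17, 95% interval 0.69 to 1.41, limma adjusted p = 0.012), a 2.07-fold difference, and stood at rank 11 of 13072 by p. The exact permutation p of 0.0002 is the smallest that 5005 splits can give.

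FOSL2 in blood kept its call without any 1 horse (0.98 to 1.14, limma adjusted p at most 0.0434) and with edgeR and DESeq2 on whole reads (1.03 in both). The monocyte marker sum was higher in OA blood as well. With that sum as a covariate, chosen after seeing the data, limma called 0 of 13072 genes (2393 at an unadjusted p under 0.05), and FOSL2 came to 0.56 (SE 0.18, unadjusted p = 0.00777, adjusted p = 0.25). Over all 26 alternatives its adjusted p ran from 7.14e-06 to that value. The proliferation sum was not entered, and its part in the blood results was not tested.

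FOSL1 was near the limit of detection in blood. It had 0 to 17 reads in OA and 0 to 5 reads in healthy libraries, with more than 3 reads in 3 of 6 OA and 2 of 9 healthy libraries, and it was below the mean needed for a test. The 17 reads came from OA_1038, and no fold change is given.

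The early response members spread widely in blood within each group. FOS was 2800 in OA_4110, 8493 in OA_9570, 10946 in OA_2615, 12825 in OA_3850, 14866 in OA_1038 and 43424 in OA_9350, while healthy horses ran from 4018 (ORC_208) over 12099 to 65118 (ORC_202). The highest value was 15.5 times the lowest in OA and 16.2 times in healthy blood, the groups lay over each other, and the difference was 0.01 (SE 0.60, 95% interval -1.26 to 1.28, limma adjusted p = 0.993). FOSB was 276 to 7730 in OA and 436 to 5413 in healthy blood (-0.03, SE 0.69, limma adjusted p = 0.979). The intervals of both genes reach past a 2-fold difference in either direction.

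JUN was 1364 to 18041 in OA and 2009 to 21762 in healthy blood (0.17, SE 0.56, limma adjusted p = 0.872). JUNB was 10889.5 to 29252 against 12073 to 42761 (-0.07, SE 0.27, limma adjusted p = 0.893). JUND was 10198 to 32838 against 13548 to 31436, and 4 of the 6 OA horses were below every healthy horse, but OA_1038 was above them all (-0.30, SE 0.26, limma adjusted p = 0.489). ATF3 was 172 to 781 in OA and 92.1 to 1093 in healthy horses, where ORC_202 stood apart from the next value of 232, and the difference was 0.66 (SE 0.47, limma adjusted p = 0.386). BATF2 was 61.0 to 281 against 27.3 to 381 (-0.07, SE 0.48, limma adjusted p = 0.943). In none of these 5 genes did the groups separate.

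**Figure D3:**
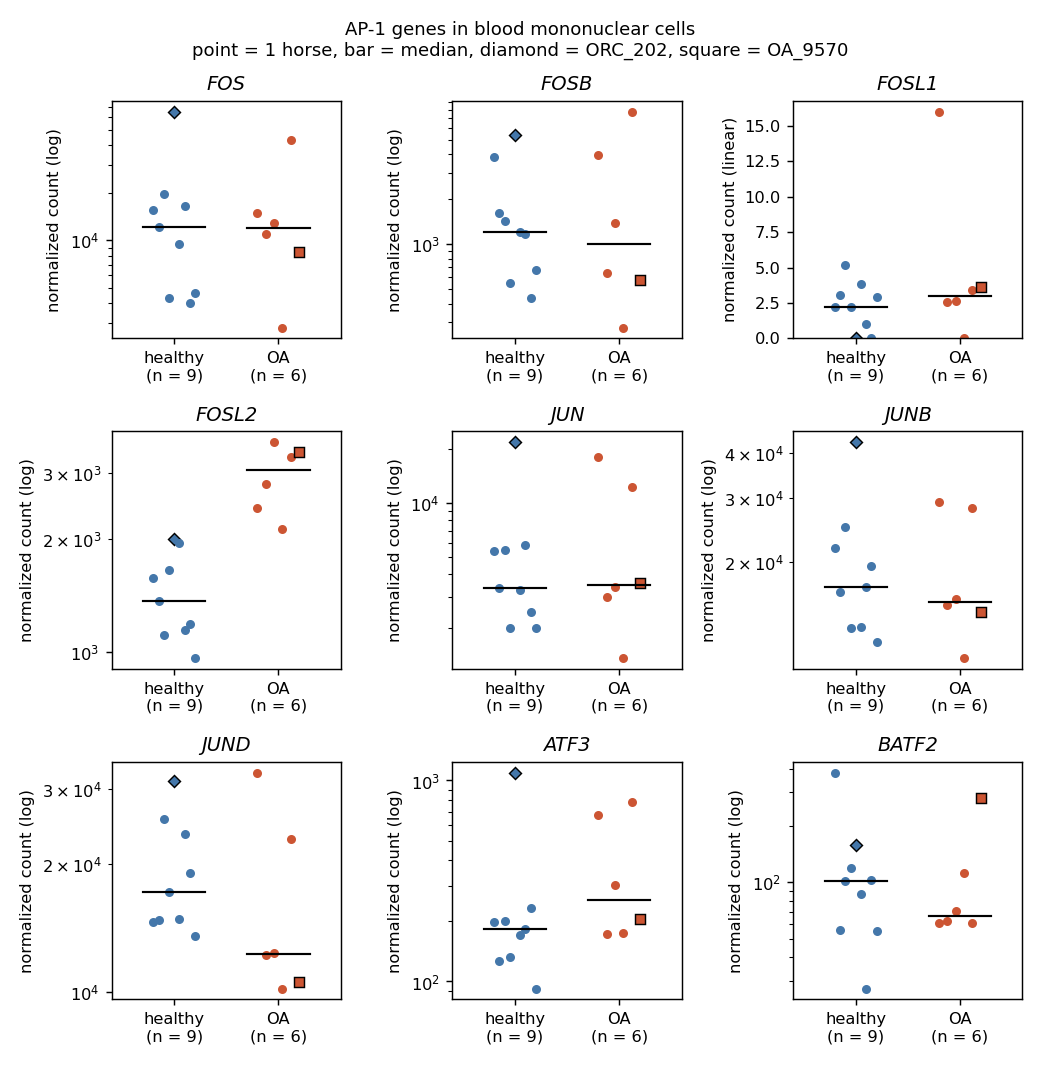
Normalized counts of the 9 AP-1 genes in blood mononuclear cells, 9 healthy (blue) and 6 OA (red) horses per panel, on log axes except FOSL1, which is on a linear axis because of zeros; bars are group medians. FOSL2 is the panel in which all 6 OA points lie above all 9 healthy points.

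The OA effect in fluid was then set against that in blood over all 31 libraries. This did not use the pairing of fluid and blood in the 13 horses that gave both. A fit of within-horse differences in those horses changed no AP-1 call. The fit over all libraries called 0 of the 8 genes tested in both. Of 12733 genes it called 10.3% with a positive signed difference (fluid minus blood) and 11.9% with a negative one (22.3% in all). At an unadjusted limma p under 0.05, which 4568 of the 12733 genes had, the count of AP-1 genes was also 0. FOSL2 had a difference of effects of 0.28 (SE 0.36, 95% interval -0.46 to 1.02, limma adjusted p = 0.616), so its rise was not shown to differ between the tissues. The intervals were wide for the others. ATF3 gave 1.14 (SE 0.85, limma adjusted p = 0.342), JUNB 0.93 (SE 0.49, limma adjusted p = 0.168) and BATF2 -0.91 (SE 0.80, limma adjusted p = 0.431). FOSL1 could not enter because of its blood level, so whether its change was confined to fluid was not tested.

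**Figure D4:**
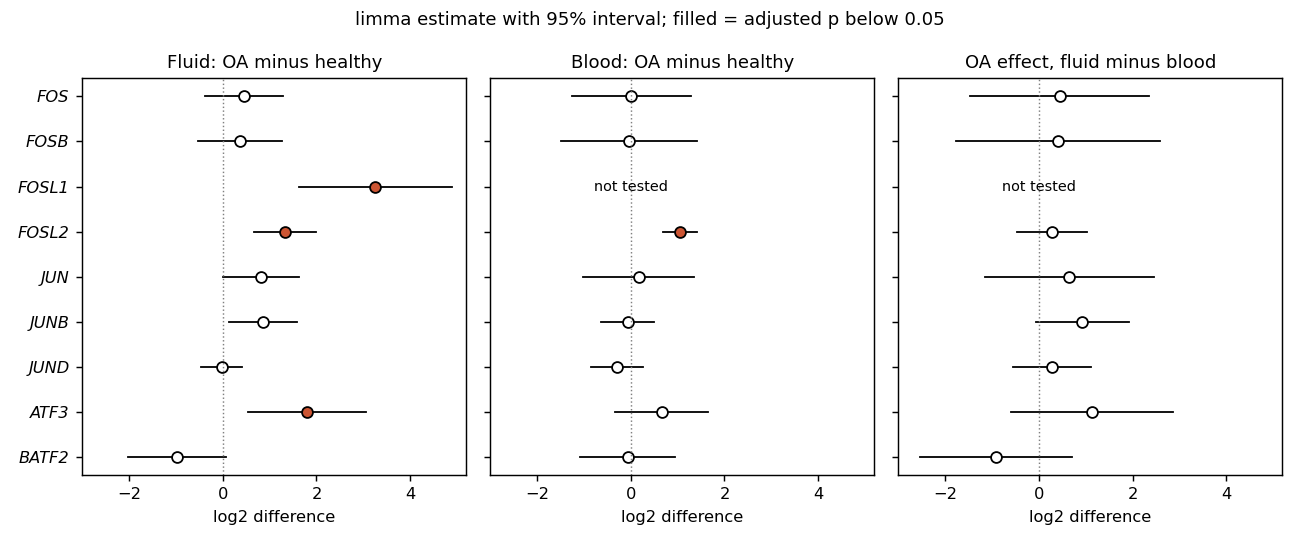
limma estimates of the OA minus healthy difference in log2(value + 1) with 95% intervals, for fluid, blood and fluid minus blood; filled points have an adjusted p under 0.05. FOSL1, FOSL2 and ATF3 are filled in fluid and FOSL2 in blood, and no point is filled in the panel of differences.

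Whether the AP-1 genes varied together was asked across the healthy horses of each tissue. No pair with FOSL2 passed in either tissue, and no pair with BATF2 did. In healthy blood 10 of 28 pairs passed by Pearson's r (permutation p adjusted over the pairs), and 2 passed by Spearman's rho as well. FOS and JUN had r = 0.97 and rho = 0.92 (n = 9, exact permutation adjusted p = 0.00448 and 0.0284), and r = 0.97 without the 2 horses farthest from the FOS median. JUNB and ATF3 had r = 0.91 and rho = 0.90 (exact permutation adjusted p = 0.0107 and 0.0284), and r = 0.76 without the 2 farthest horses. The other 8 passed by r alone, and ORC_202 was the highest healthy blood for 7 of the 9 genes. Pairs with FOSL2 had r from 0.11 (JUND) to 0.53 (ATF3), and those with BATF2 from -0.02 (JUND) to 0.51 (FOSL2). FOSB and JUND, at r = 0.36, were no closer than most pairs with FOSL2.

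In healthy fluid 2 of 36 pairs passed by r, and the pairs of FOSB with FOS, JUN and JUNB, at r = 0.23, 0.26 and 0.19, were not among them. FOS and JUN had r = 0.84 and rho = 0.89 (n = 11, permutation adjusted p = 0.014 and 0.0198; r = 0.75 without the 2 farthest horses). FOS and ATF3 had r = 0.89 (permutation adjusted p = 0.014), but rho = 0.72 missed the threshold (adjusted p = 0.19) and r was 0.54 without the 2 farthest horses. FOSL1 and FOSL2 had r = 0.72 (permutation adjusted p = 0.0905) and rho = 0.56 (adjusted p = 0.262), with r = 0.52 without the 2 farthest horses.

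**Figure D5:**
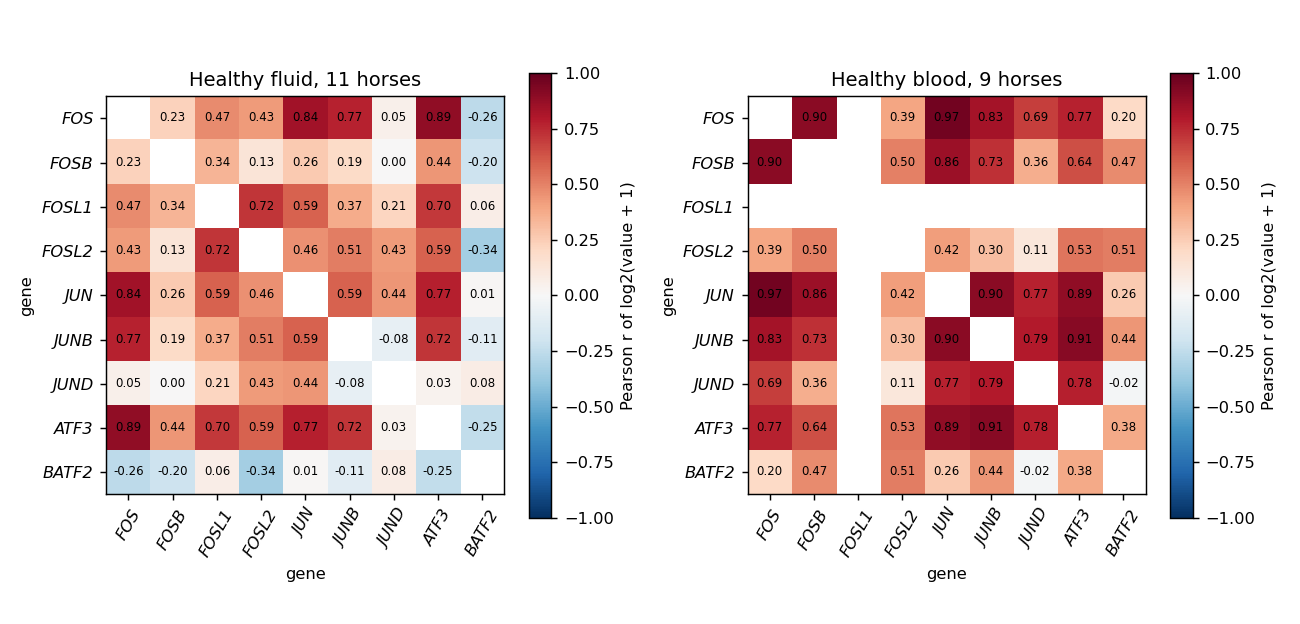
Pearson r of log2(value + 1) for each pair of AP-1 genes across 11 healthy fluids and 9 healthy bloods, red for positive and blue for negative; blank cells are the diagonal and FOSL1 in blood, which was not tested. In blood most pairs among FOS, FOSB, JUN, JUNB, JUND and ATF3 are deep red, with FOS and JUN at 0.97 but FOSB and JUND at 0.36. The FOSL2 and BATF2 rows are paler, with FOSL2 and ATF3 at 0.53.

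Whether a horse high for a gene in fluid was also high in its own blood was asked over the 13 horses with both samples, on deviations from the group means, for 8 genes. BATF2 had r = 0.80 (permutation p = 0.00205, adjusted over the 8 genes 0.0164) and rho = 0.71 (permutation p = 0.00835, adjusted p = 0.0668). Without the 2 horses farthest from the median its r was 0.41, so the relation rests on those horses, OA_9570 being high in both samples. FOS had r = 0.60 and FOSL2 r = 0.59 (both with a permutation adjusted p = 0.0901), with rho of 0.37 and 0.54. The other 5 genes had r of 0.26 to 0.51 and none passed.

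The genes whose deviations from the group means followed each member most closely are given as a description, since libraries share depth and cell mixture. In fluid (16 libraries) FOS was followed by JUN (r = 0.86) and the early response gene IER3 (0.85), and JUN by N4BP2L1 (0.89) and RHOB (0.87). FOSL2 was followed by PLK3 (0.87), a stress-responsive kinase, PTPN1 (0.85) and PNMA1 (0.85), and FOSL1 by NUAK1 (0.86), XRN2 (0.86) and KIAA0232 (0.85). In blood (15 libraries) FOS went with the phosphatase gene DUSP1 (0.95), IRAK3 (0.94) and the early response gene EGR2 (0.92), and JUN with NFKBIZ, RGS1 and DUSP2 (0.95 each). FOSL2 in blood went with HGF (0.93), STX2 (0.90) and DPYD (0.90). The 100th gene still had r = 0.65 for FOS and 0.66 for FOSL2 in fluid, and 0.70 and 0.78 in blood. Sets of only 3 genes therefore cannot show whether FOS and FOSL2 were followed by the same genes.

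Of 11 other zipper genes whose proteins can pair with AP-1 members, 3 were called higher and 2 lower in fluid, with a median of 0.51, where 14.4% of all tested genes were called higher and 13.6% lower. The small Maf gene MAFF rose from 357 ± 345 (SD, n = 11) to 1636 ± 614 (SD, n = 5), by 2.62 (SE 0.59, limma adjusted p = 0.00521), JDP2, which represses AP-1 sites, by 1.60 (limma adjusted p = 0.00949) and CREM by 1.08 (limma adjusted p = 0.0136). BATF, a Jun partner of lymphocytes, fell from 2063 ± 819 to 542 ± 245, by -1.94 (SE 0.31, limma adjusted p = 0.00076), with all 5 OA fluids below every healthy one, beside the lower T cell marker sum. With that sum as a covariate BATF came to -0.46 (SE 0.38, limma adjusted p = 0.702). That fit called 0 of all 13885 tested genes, so the lost call does not set BATF apart. In blood 2 of 11 were called higher, among them CREB5 (1.52, limma adjusted p = 0.0252), and 0 lower (5 and 0 at an unadjusted p under 0.05; 0 lower by edgeR and DESeq2). Of all tested genes in blood 3.20% were called higher and 2.20% lower, and 3273 of 13072 had an unadjusted limma p under 0.05 in either direction.

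Early response genes outside the family gave 3 calls higher and 2 lower of 24 in fluid, with a median of 0.92; the shares over all tested genes were 14.4% and 13.6%. The orphan receptor NR4A3 rose from 540 ± 659 to 9520 ± 11454, by 3.89 (SE 0.86, limma adjusted p = 0.00511), and the matrix-associated CCN1 by 3.42 (SE 1.09, limma adjusted p = 0.0283), whereas KLF6 fell by 0.92 (SE 0.19, limma adjusted p = 0.00316) and the survival gene MCL1 by 0.66 (SE 0.17, limma adjusted p = 0.00931). The count higher was 1 to 8 when 1 horse was left out. It was 11 without OA_9570 and ORC_202 together, where that fit called 2805 of all 13915 genes higher. In blood limma called 0 of 21 in either direction, where it called 3.20% of all tested genes higher and 2.20% lower. At an unadjusted limma p under 0.05 the counts were 4 higher and 2 lower, where 3273 of all 13072 tested genes passed in either direction. edgeR and DESeq2 called 0. KLF2 was at -0.42 (SE 0.15, limma adjusted p = 0.0974).

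Genes of enzymes and factors that switch AP-1 on and off were counted against the same shares of all tested genes. These were 14.4% higher and 13.6% lower in fluid, and 3.20% higher and 2.20% lower in blood. An unadjusted limma p under 0.05, in either direction, was found for 5790 of 13885 genes in fluid and 3273 of 13072 in blood. Of 26 kinases and nuclear factors 2 were called higher in fluid, MAPK9, which encodes the Jun kinase JNK2 (0.62, limma adjusted p = 0.029), and ELK1 (0.55, limma adjusted p = 0.0372), and 1 lower, ELK4 (-1.003, limma adjusted p = 0.00391), with 0 called in blood (6 higher and 0 lower at an unadjusted p under 0.05; DESeq2 called 1 and edgeR 0). With equal library totals the fluid counts were 0 higher and 5 lower, where that fit called 1302 of all 13873 genes higher and 2767 lower. With weights per library they were 6 and 8, where 3654 of all 13885 genes were called higher and 2981 lower. The shares given above do not apply to these 2 fits. ELK1 lost its call with edgeR (adjusted p = 0.0505), TMM scaling (limma adjusted p = 0.0571) and equal library totals (0.34, limma adjusted p = 0.155), and MAPK9 with equal library totals (0.42, limma adjusted p = 0.144). Of 14 MAP kinase phosphatases and feedback inhibitors 3 were called lower in fluid and 0 higher (4 higher at an unadjusted p under 0.05, 1 by edgeR and 3 by DESeq2): DUSP2 (-1.35, limma adjusted p = 0.0245), DUSP7 (-0.79, limma adjusted p = 0.0273) and DUSP14 (-0.86, limma adjusted p = 0.0463). In blood 1 of 12 was called, SPRED1 (1.33, limma adjusted p = 0.0348). Of these 6 fluid calls, ELK4 kept its own without any 1 horse and the other 5 did not. Protein phosphorylation, through which these enzymes act on Fos and Jun, was not measured.

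Textbook AP-1 target genes were called higher in 13 of 28 cases in fluid and lower in 2, with a median of 2.24. Over all tested genes in fluid the shares were 14.4% higher and 13.6% lower, and the median was 0.08. The growth factor gene AREG was 43.1 to 5625 in OA and 0 to 364 in healthy fluid, a change of 6.98 (SE 1.36, limma adjusted p = 0.00216), and VEGFA rose from 232 ± 142 to 1857 ± 1768, by 2.71 (SE 0.53, limma adjusted p = 0.00219). The protease inhibitor TIMP1 rose by 2.08 (limma adjusted p = 0.00332) and the haem-degrading enzyme HMOX1 by 2.37 (limma adjusted p = 0.00332). Many of these genes are made by fibroblasts too, and with the fibroblast marker sum as a covariate 7 were called higher. That fit called 587 of 13885 genes higher. In blood 3 of 21 were called higher and 1 lower, where limma called 3.20% of all tested genes higher and 2.20% lower. The urokinase receptor gene PLAUR rose from 322 ± 100 (SD, n = 9) to 926 ± 393 (SD, n = 6), by 1.47 (SE 0.30, limma adjusted p = 0.0196). LMNA rose by 1.40 (limma adjusted p = 0.0416) and FN1 by 3.73 (limma adjusted p = 0.0424), and HMGA1 fell by 0.61 (limma adjusted p = 0.0235). These PLAUR and FN1 changes stood beside the higher monocyte marker sum of OA blood, and with that sum as a covariate 0 of the 21 were called. That fit called 0 of all 13072 tested genes, so this count does not set the target genes apart.

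Heat shock and chaperone genes, a list that responds to cell stress without being part of AP-1, were called higher in 7 of 12 cases in fluid and lower in 0 (also 0 by edgeR, DESeq2 and at an unadjusted p under 0.05), with a median of 0.90. The shares over all tested genes were 14.4% higher and 13.6% lower in fluid, and 3.20% higher and 2.20% lower in blood. HSPD1 rose by 1.001 (limma adjusted p = 0.00165) and HSPE1 by 1.17 (limma adjusted p = 0.00178). In blood 1 of 12 was called higher, HSPA4L (0.87, limma adjusted p = 0.0292), and 2 lower, BAG3 (-0.63, limma adjusted p = 0.0318) and HSP90AA1 (-0.30, limma adjusted p = 0.0331). Unlike FOSL2, every gene of these lists named as called in blood lost its call when 1 of 3 to 9 horses, depending on the gene, was left out, and without OA_3850, OA_9350 or OA_9570 limma called 33, 35 and 31 genes in blood in all.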

How the data were processed

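Each deposited value is a signal, made by the authors from the reads of a gene by dividing with a median-ratio size factor of the library, in 1 table for fluid (17538 genes) and 1 for PBMC (17410 genes), per the file headers and values. Hyaluronidase-treated fluid was spun down and mRNA of frozen pellets was selected with oligo(dT) for TruSeq libraries, per the labels' protocols. The submitters' processing notes name Partek, cutadapt, STAR 2.7.3, HTSeq, DESeq and EquCab3.0; settings and strand were not given in the sources used here. Between 99.85% and 99.99% of values gave whole reads (within 0.1), hence the depth.

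Genes whose mean reached 10 were fitted per tissue on log2(value + 1) with limma 3.58.1 (R 4.3.3; trend, robust), two-sided, with Benjamini-Hochberg adjustment over all tested genes. The difference between tissues used 4 group means over 31 libraries with weights per tissue. Alternatives were edgeR 4.0.16 and DESeq2 1.42.0 on recovered reads, other scalings, filters and pseudocounts, and leaving out horses. Horse numbers in the titles pair fluid and blood: deviations from group means correlated at over 0.1 in 13 of 13 horses (0.123 to 0.391). Exact permutation tests used every split, and other permutation tests 100000 resamples. Within a group no library was a near copy of another. Coordinates come from the PBMC table. The members, lists and tests were chosen with earlier results of these data known. Named genes were the 9 members, up to 4 called genes of smallest p per list and tissue (with none called, the gene of highest mean), and the 3 genes most correlated with FOSL1, FOSL2, FOS and JUN; 1 gene that this rule names is not reported here singly. On simulated data, 29% of 2-fold and 68% of 4-fold changes were recovered in fluid (13668 genes, 5 false calls), 72% and 90% in PBMC (12973 genes, 7 false calls) and 23% and 64% for the difference (12579 genes, 6 false calls). The cytokine immunoassay was not used here.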

Additional observations from a re-analysis of the deposited data

Results flagged for a closer look

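Within the 25 groups of 4 to 10 horses looked at, 8 had 1 horse farther from the rest than a Dixon test at 95% allows. The test was run on values without log transformation, where high values stand out more than on the log2 scale used elsewhere. Its chance rate of about 1 group in 20 assumes independent groups of normally spread values. The same horses recur among these groups, so the 8 flags cannot be set against that rate. Of the 8, 4 were the healthy blood of ORC_202. FOS was 65118 there, with the next healthy horse at 19553, JUN was 21762 (next 5825), JUNB was 42761 (next 24955.5) and ATF3 was 1093 (next 232). Among OA bloods, OA_9350 had FOS at 43424, with the next at 14866.

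BATF2 gave the other 3. It was 345 in the fluid of OA_9570 (next 65.4) and 281 in the blood of the same horse (next 112), and 381 in the healthy blood of ORC_188 (next 159), whose fluid also had the highest healthy BATF2.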

How the results depend on the processing

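FOSL1 (2.46 to 3.98 in 26 alternatives) and FOSL2 (1.08 to 1.61 in 26) kept their calls in fluid, and FOSL2 (0.98 to 1.14 in 25) in blood, whether the fit, the scaling, the filter or the horses changed. The exceptions were covariates chosen after seeing the data: in fluid FOSL1 lost its call with the fibroblast sum (2.26) and the T cell sum (0.32) and FOSL2 with the T cell sum (1.07), and in blood FOSL2 lost it with the monocyte sum (0.56). ATF3 in fluid also lost its call with edgeR (adjusted p = 0.0752) and with horses that gave both samples (limma adjusted p = 0.0973). The AP-1 genes called higher in fluid were 5 with weights per library, 1 with the fibroblast sum and 0 with the T cell sum, and 2 to 5 when 1 horse was left out; 1 was called lower with weights per library and without OA_9570 and ORC_202, and 0 to 1 when 1 horse was left out. In blood the count was 0 with the monocyte sum and 1 otherwise.

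ATF3 and JDP2, both called in fluid, turned in sign with the T cell sum, to -0.70 and -0.025. The other values that turned in sign had not passed the threshold. With the T cell sum FOS came to -1.09, FOSB to -0.25, JUN to -0.57, JUNB to -0.25 and JUND to 0.0079; FOSB was -0.021 with the fibroblast sum, and JUND 0.037 with horses that gave both samples. With the monocyte sum in blood, ATF3 was -0.073, FOS -1.19, JUN -0.69 and MAP3K1 0.30. In blood FOS was -0.11 with edgeR and with DESeq2 and -0.0020 with TMM scaling. FOSB was 0.43 with edgeR, 0.42 with DESeq2, 0.45 without OA_9570 and ORC_202 and 0.39 with horses that gave both samples. JUNB was 0.032 with weights per library, 0.14 without OA_9570 and ORC_202 and 0.057 with horses that gave both samples, BATF2 was 0.18 with weights per library, and MAP3K1 was 0.0058 without OA_9570 and ORC_202. Leaving out 1 horse gave JUND -0.089 to 0.068 in fluid, and in blood BATF2 -0.39 to 0.18, FOS -0.38 to 0.41, FOSB -0.55 to 0.41, JUN -0.22 to 0.53, JUNB -0.21 to 0.081 and MAP3K1 -0.19 to 0.041. The cause was not tested.

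For the difference between tissues, the replicate block (within-horse differences of 13 horses) gave FOS -0.20 and FOSB -0.16, changed no AP-1 call and called 2750 genes; leaving out 1 horse gave FOSB -0.028 to 0.93. Genes called in fluid were 6635 with weights per library, 1388 with the fibroblast sum, 0 with the T cell sum and 2506 to 4651 without 1 horse. Those in blood were 1685 with DESeq2, 2312 with weights per library, 439 without OA_9570 and ORC_202, 0 with the monocyte sum and 31 to 1209 without 1 horse (33, 35 and 31 without OA_3850, OA_9350 and OA_9570), and those of the difference 4753 with weights per library and 1809 to 3207 without 1 horse. Equal library totals moved the median of all genes in fluid from 0.08 to -0.12, with 1302 genes called higher and 2767 lower in place of 2006 and 1893, and the median of the difference to -0.26, with 797 higher and 2255 lower in place of 1315 and 1519. Depth limits FOSL1 in blood and in the healthy fluids with under 10 reads.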

Other observations

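The healthy horse ORC_202 was at the edge of its group for most AP-1 genes. Its fluid held the lowest healthy T cell sum and the highest healthy FOS, FOSL2, JUN, JUNB and ATF3. The highest healthy FOS, FOSB, FOSL2, JUN, JUNB, JUND and ATF3 in blood were also in this horse. Its blood had the highest T cell (100484), monocyte (112574) and neutrophil (32253.5) marker sums of the healthy bloods. It also had the lowest B cell (24316), platelet (157) and proliferation (7479) sums of these bloods. The part of this mixture in its AP-1 values was not tested. In OA blood, OA_4110 was lowest for FOS, FOSB, FOSL1, FOSL2, JUN, JUNB and JUND, and had the lowest OA monocyte marker sum (88228); its joint fluid was not analysed here.

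The OA effect in fluid minus that in blood was called positive for 6 of 20 target genes and 8 of 12 heat shock and chaperone genes, where limma called 10.3% of 12733 genes as positive. A positive difference can also come from a fall in blood: BAG3, one of the 8, was at 0.23 in fluid (limma adjusted p = 0.462) and fell by 0.63 in blood (limma adjusted p = 0.0318). GJA1, the gap junction gene, had a difference of effects of 3.88 (SE 0.93, limma adjusted p = 0.00461), VEGFA of 2.91 (SE 0.56, limma adjusted p = 0.00114) and HSPD1 of 1.25 (SE 0.21, limma adjusted p = 0.000592). These genes were chosen after their values were seen.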
